A study of Mus musculus with 4 samples.

Results

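The oligodendrocyte lineage and its myelin were followed through 36 genes in the brain cortex of mice given TCQA or water. The genes were listed by name, and each was read from the row of the array's value table that carries its symbol, the row with the highest mean where a symbol has several. Of the 36, 35 were measured, out of 19572 transcript clusters with a gene symbol, and each of the 35 had a single row. Pdgfra, the growth factor receptor that marks precursors, was not analysed here. The 35 comprised 4 precursor genes, 4 genes of newly formed oligodendrocytes, 3 transcription factors of the whole lineage and 24 genes of myelinating cells.

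All mice were male SAMR1, a line bred as the normally ageing counterpart of senescence-accelerated mice, and were kept in individual cages for 4 months from an age of 7 months. The treated mice received TCQA (tricaffeoylquinic acid, a plant polyphenol) at 5 mg/kg by mouth daily for 1 month from an age of 11 months. The control mice received MilliQ water over the same month. Each group had 2 Clariom S arrays, and whether an array represents a single mouse or pooled mice is not stated. The p-values below therefore rest on these 4 samples alone, and the spread between them may be technical. In limma's moderated test each gene's own spread is drawn toward that of all tested transcript clusters.

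Oligodendrocytes arise from dividing precursors, pass through a brief newly formed stage, and then wrap axons in myelin, a stack of compacted membrane rich in lipid and in a few dedicated proteins. SOX10 and the OLIG factors set up the lineage, and MYRF switches on the myelin genes. In the cortex most of these cells lie in the deep layers and in the white matter beneath, and some precursors continue to differentiate in adult mice. In tissue RNA, fewer cells of a type and less RNA per cell cannot be told apart.

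Values are log2 signals, so that a difference of 1 is a 2-fold change, and levels of different genes are not comparable on this scale. Array medians lay between 6.98 and 7.04, and 130 of the 19572 transcript clusters (0.664%) met the criteria of the study (unadjusted p below 0.05, more than 2-fold). The p criterion alone was met by 1443 (7.37%), and 0 (0%) passed limma's threshold after Benjamini-Hochberg adjustment. Negative control probe sets had a median of 6.98 and a 95th percentile of 11.06. Both group means of 16 of the 35 genes exceeded that percentile, while both means of Cspg4, Neu4, Nkx2-2 and Sox10 lay below the control median, so that the size of their changes is uncertain. No myelinating gene had both means below the control median, and 10 excitatory neuron markers of cortex averaged between 11.59 and 12.47 on the 4 arrays.

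Across the lineage, genes were more often lower than higher after TCQA, and the differences were small. Of the 35 genes 26 had a lower mean in TCQA than in water, against 49.5% of all transcript clusters, and the median log2 change was -0.18, against 0.0028 over all. The largest negative difference was that of Bcas1, at -1.03, and the largest positive difference that of Gjc3, at 0.52. An unadjusted p under 0.05 was reached by Bcas1 and Mag, both lower (3.89% of all transcript clusters were), and by 0 genes in the other direction (3.48% of all). Bcas1 alone met the study's criteria among those lower (0.419% of all), and 0 of the 35 met them among those higher (0.245% of all). No gene of the 35 passed the adjusted threshold, the smallest adjusted p being 0.673.

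The arrays did not divide by treatment, and the array water 1 stood above the other 3. It held the highest value of 26 of the 35 genes (74.3%), against 26.9% of all transcript clusters, and the lowest of 0. Water 1 exceeded water 2 for 33 of the 35 genes, among them all 24 myelinating genes, with a median of 0.53 for water 1 minus water 2 on the log2 scale. TCQA 1 exceeded TCQA 2 for 21 of the 35, with a median of 0.10 for TCQA 1 minus TCQA 2. Regardless of sign, the median gap was 0.25 between the TCQA arrays and 0.53 between the water arrays. For 28 of the 35 the gap between the water arrays was larger than the difference between the group means, which held for 56.7% of all transcript clusters. Both TCQA arrays lay below both water arrays for 12 of the 35 genes (19.2% of all transcript clusters did so) and above both for Tspan2 and Gsn (19.9% of all). The remaining 21 overlapped.

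**Figure D1:**
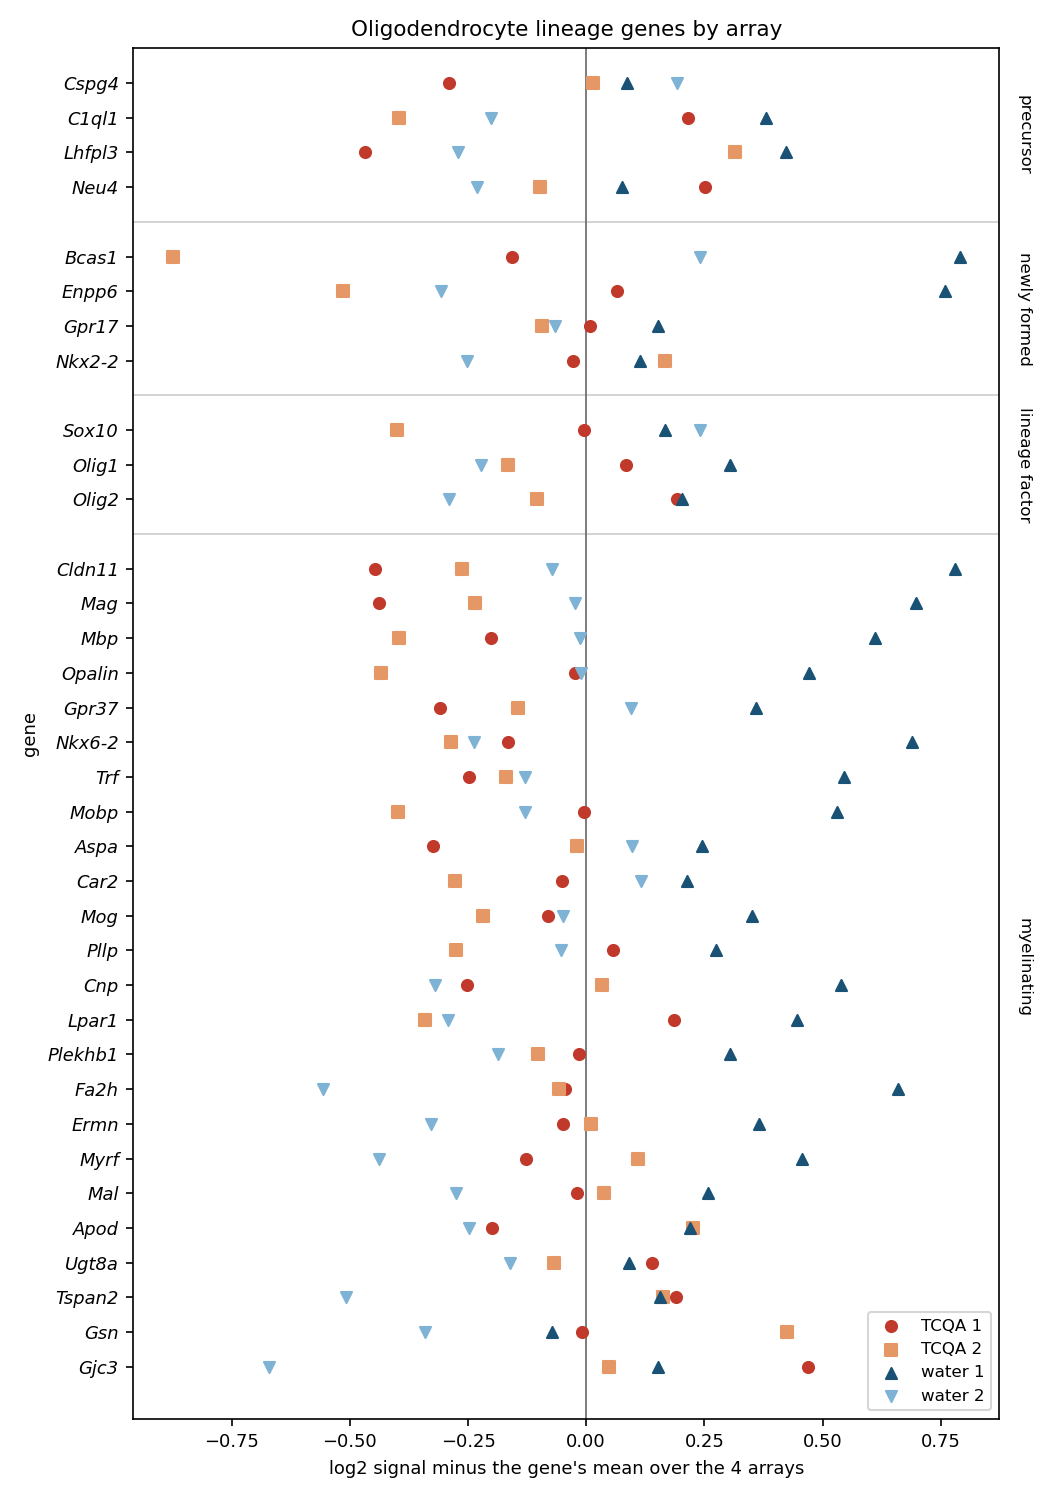
Each point is the log2 signal of a gene on 1 array minus that gene's mean over the 4 arrays, for TCQA 1 (circles), TCQA 2 (squares), water 1 (upward triangles) and water 2 (downward triangles). Genes are grouped by stage, and water 1 is the rightmost point in 26 of 35 rows and the leftmost in 0.

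Without water 1, 14 of the 35 genes were lower in TCQA (48.5% of all transcript clusters were), with a median of 0.11. Without water 2, 31 were lower, with a median of -0.42, and 11 had an unadjusted p under 0.05 in that direction (4.92% of all). Without TCQA 1 and without TCQA 2 the medians were -0.19 and -0.16. The array left alone in a group is assumed in these fits to vary like the other group. The predominance of lower values after TCQA was present without water 2 and without either TCQA array, and absent without water 1. By stage the medians without that array lay between 0.054 and 0.18, above 0 for each of the 4 stages. Within the myelinating stage, the 13 membrane and structural genes had a median of -0.056 without water 1, with 7 of the 13 lower.

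**Figure D2:**
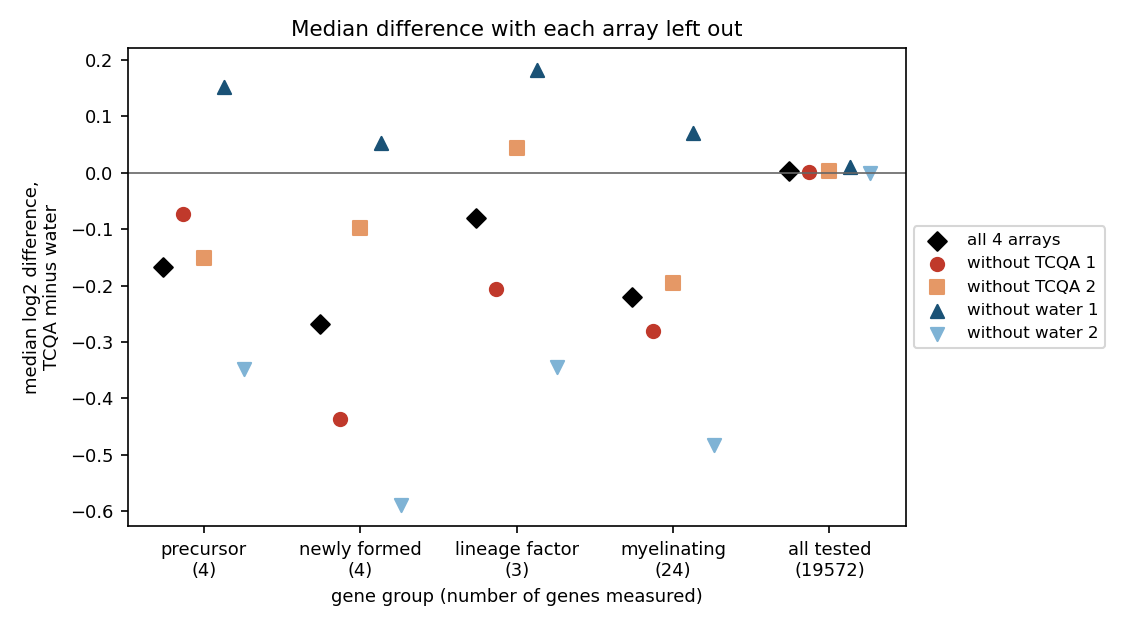
The vertical axis gives the median log2 difference, TCQA minus water, over the genes of each stage and over all tested transcript clusters, with all 4 arrays (diamonds) and with each array left out. Leaving out water 1 places all 4 stages above 0, and leaving out water 2 places them between -0.59 and -0.34.

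Among precursor genes 3 of 4 were lower and 0 reached an unadjusted p under 0.05, with a median change of -0.17. Cspg4, which encodes the NG2 proteoglycan on the precursor surface, had log2 signals of 5.54 and 5.84 in the TCQA arrays, against 5.91 and 6.02 in the water arrays, a difference of -0.28 (SE 0.20, 95% interval -0.77 to 0.21). Its groups did not overlap, but all 4 values lay below the negative control median. Neu4, a sialidase, had 6.78 and 6.43 in the TCQA arrays and 6.60 and 6.30 in the water arrays, and C1ql1, a secreted C1q-like protein, had 9.73 and 9.12 in TCQA and 9.89 and 9.31 in water. In both genes the groups overlapped and the first array of each group was the higher one. Lhfpl3, a tetraspan membrane protein, overlapped as well, with a difference of -0.15 (95% interval -0.98 to 0.68) that became 0.19 without water 1 and 0.24 without TCQA 1. The differences of C1ql1 turned to 0.11 without water 1 and 0.13 without TCQA 2, and that of Neu4, at 0.16 with all arrays, to -0.019 without TCQA 1.

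The gene that differed most of the 35 belongs to the newly formed stage. Bcas1, which marks oligodendrocytes that have just begun to myelinate, had log2 signals of 12.16 and 11.45 in the TCQA arrays, against 13.11 and 12.56 in the water arrays. Both TCQA values lay below both water values, although the gap within each group, 0.72 for TCQA and 0.55 for water, was more than the distance between TCQA 1 and water 2. The difference of -1.03 (SE 0.31, 95% interval -1.78 to -0.28) corresponds to a 2.04-fold lower level, with an unadjusted p of 0.0146 and an adjusted p of 0.673 by limma. It became -0.76 without water 1 and -0.67 without TCQA 2, where the unadjusted p was 0.0758 and 0.0732.

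The other genes of the stage had smaller differences, none with an unadjusted p under 0.05. Enpp6, a choline-specific phosphodiesterase of early myelinating cells, had 6.87 and 6.29 in TCQA and 7.56 and 6.50 in water, so that the difference of -0.45 (95% interval -1.38 to 0.48) came with a single high array, and it turned to 0.083 without water 1. Gpr17, a receptor of committed precursors that is switched off before myelination, differed by -0.085 (95% interval -0.55 to 0.38) with overlapping groups, and by 0.024 without water 1. Nkx2-2, a homeodomain factor of the transition out of the precursor stage, had 4.97 and 5.17 in TCQA and 5.11 and 4.75 in water, all below the control median, and a difference of 0.14 that turned to -0.045 without water 2. The stage as a whole had 3 of 4 genes lower and a median of -0.27.

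Of the lineage factors, Olig1 and Olig2 had small mean differences, and Sox10 was lower without overlap. Olig2, the basic helix-loop-helix factor that specifies the lineage, had 9.69 and 9.39 in the TCQA arrays and 9.70 and 9.21 in the water arrays, and its neighbour Olig1 had 9.65 and 9.40 in TCQA and 9.87 and 9.34 in water. For both genes water 1 was highest and water 2 lowest, so that the TCQA arrays lay inside the range of the water arrays. The 95% interval of the difference was -0.50 to 0.67 for Olig2 and -0.67 to 0.51 for Olig1. Changes within those intervals were not excluded by these 4 arrays. Olig1 changed sign without water 1 (0.18) and without TCQA 2 (0.044), and Olig2 without TCQA 1 (-0.061) and without water 2 (-0.16). Sox10, which acts with MYRF on myelin genes, had 6.64 and 6.25 in the TCQA arrays and 6.81 and 6.89 in the water arrays, which differ by -0.41 (SE 0.21, unadjusted p = 0.104, adjusted p = 0.69, limma). In Sox10 water 2 rather than water 1 was highest, with all values below the control median.

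The 2 transcription factors of the myelinating stage were both highest in water 1. Myrf, the membrane-tethered regulator of myelin genes, had 9.53 and 9.76 in the TCQA arrays and 10.11 and 9.22 in the water arrays, with both extremes in the water group. Nkx6-2, a homeodomain factor of mature oligodendrocytes, had 7.30 and 7.18 in TCQA and 8.16 and 7.23 in water. Without water 1 the differences of -0.019 and -0.45 became 0.43 and 0.011, and that of Myrf became 0.10 without TCQA 1.

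Of the 13 membrane and structural genes of myelinating cells 9 were lower and 4 higher in TCQA, with a median of -0.22, and 1 had an unadjusted p under 0.05. That gene was Mag, an adhesion protein of the innermost myelin wrap that faces the axon. Its log2 signals were 7.87 and 8.07 in the TCQA arrays, against 9.00 and 8.28 in the water arrays, a difference of -0.67 (SE 0.28, 95% interval -1.34 to -0.004, unadjusted p = 0.049, adjusted p = 0.673, limma). The groups did not overlap, but TCQA 2 lay closer to water 2 than water 2 lay to water 1. The difference was -1.03 without water 2, and the unadjusted p was no longer under 0.05 without water 1 (-0.31), TCQA 1 (-0.57) or TCQA 2 (-0.77).

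Cldn11, the claudin of the tight junctions between myelin layers, had 11.03 and 11.21 after TCQA and 12.25 and 11.40 after water. The difference of -0.71 (SE 0.30, unadjusted p = 0.0558, adjusted p = 0.681, limma) was -0.28 without water 1. Mbp, the basic protein that holds the inner faces of the myelin membrane together, had 16.94 and 16.75 in the TCQA arrays and 17.75 and 17.13 in the water arrays, giving -0.60 (SE 0.26, unadjusted p = 0.0571, adjusted p = 0.683, limma) that was -0.29 without water 1. In Mbp, Cldn11 and Mag alike, both TCQA arrays lay below both water arrays, and water 1 stood apart at the top.

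The other structural genes ran in both directions. Opalin, a sialylated glycoprotein of central myelin, and Mog, an outer-surface glycoprotein, were lower, at -0.46 and -0.30, without overlap between the groups. Mobp, a small basic myelin protein, and Pllp, the tetraspan protein plasmolipin, differed by -0.40 and -0.22 with overlap. Cnp, the phosphodiesterase that keeps cytoplasmic channels open in myelin, differed by -0.22, and Ermn, a cytoskeletal protein of the outer myelin, by -0.038. Without water 1 these became 0.21 and 0.31. Mal, a proteolipid of membrane sorting, differed by 0.018 and had the opposite sign, -0.043, after quantile normalisation and without TCQA 2 (-0.011) or water 2 (-0.25).

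Gjc3, a connexin of oligodendrocytes, had the largest positive difference. Its log2 signals were 13.48 and 13.06 in the TCQA arrays and 13.17 and 12.34 in the water arrays, a difference of 0.52 (SE 0.32, 95% interval -0.24 to 1.28, unadjusted p = 0.149, adjusted p = 0.712, limma). TCQA 2 lay just below water 1, so that the groups overlapped. Tspan2, a tetraspanin, and Gsn, the actin-severing protein gelsolin, were higher by 0.35 and 0.42, with both TCQA arrays above both water arrays. Gjc3 was 0.93 and Tspan2 0.68 higher without water 1, each with an unadjusted p under 0.05 (2.92% of all transcript clusters were higher at that level), and 0.11 and 0.019 higher without water 2.

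**Figure D3:**
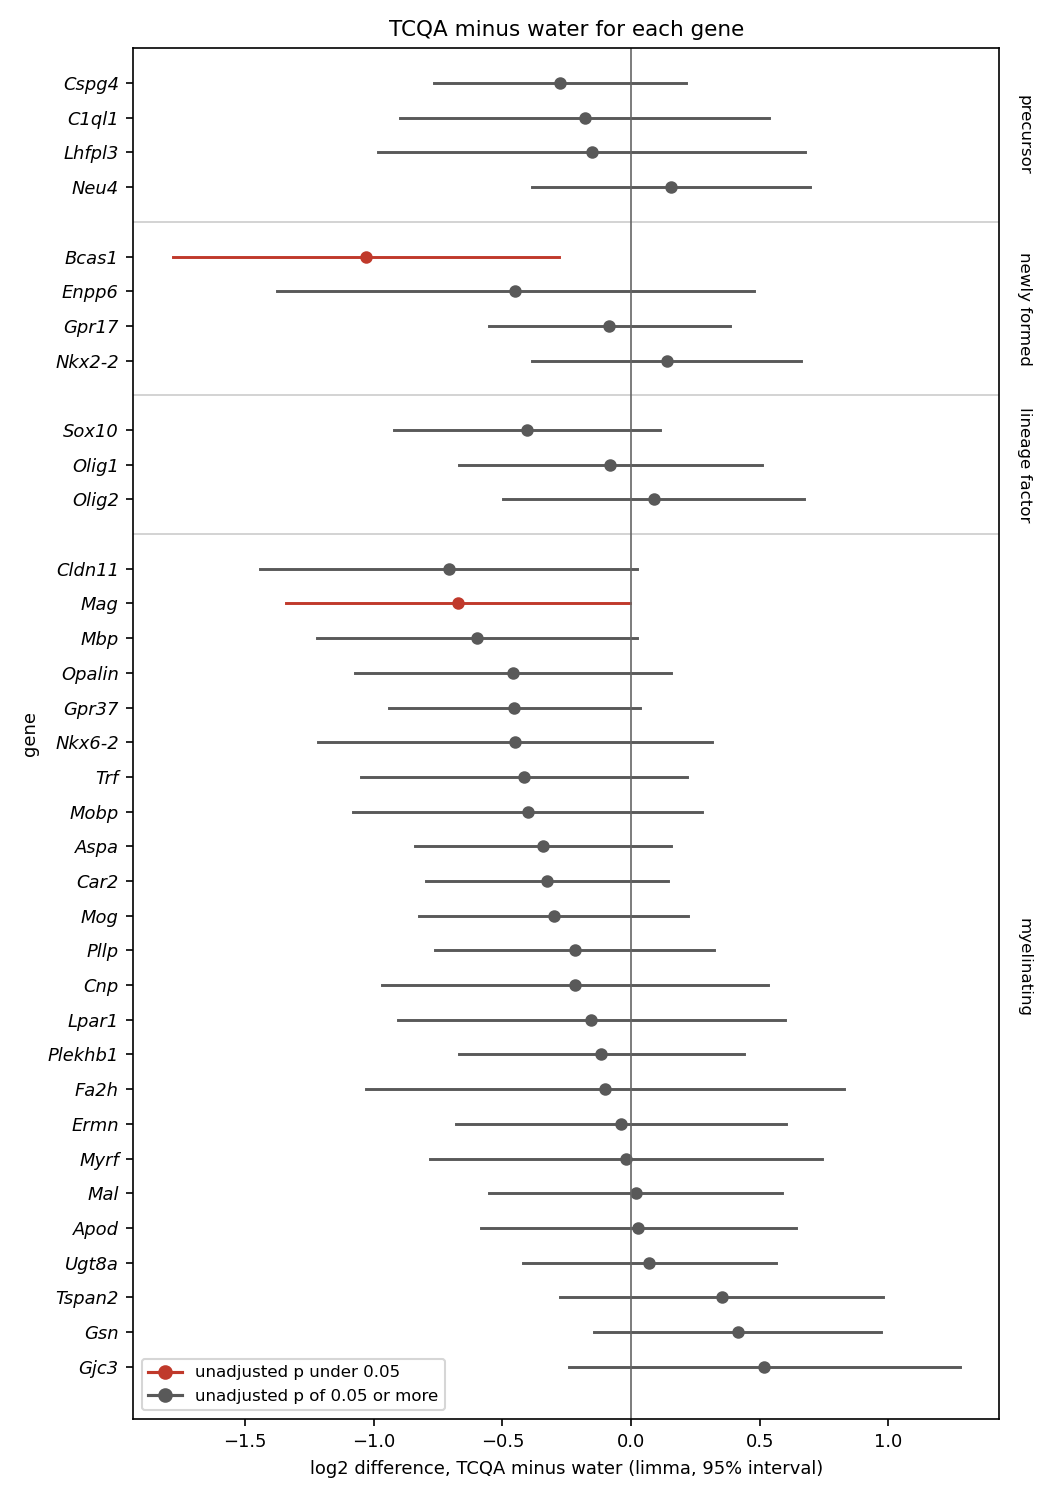
Points give the log2 difference, TCQA minus water, for each gene by stage, and bars the 95% interval of limma's moderated test with 2 arrays per group. Bcas1 and Mag, in red, are the genes with an unadjusted p under 0.05, and the intervals of the other 33 cross 0.

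Promoter sequence is shown for Mag and Cldn11, which were lower together, and for Gjc3, which had the largest positive difference with overlapping groups, to set the letters before their starts beside each other. Each is the 250 bases before a RefSeq transcription start on GRCm38.p6, read 5′ to 3′ on the gene's strand, at chr7:30914864-30915113 (minus strand, the first of 3 starts listed for the gene), chr3:31149670-31149919 (plus strand) and chr5:137963099-137963348 (minus strand). Capitals mark matches, on either strand, to the SOX letters ACAAAG or ACAATG, the MYRF letters CTGGNAC, or the E-box letters CAGATG or CAGCTG that basic helix-loop-helix factors such as OLIG2 can bind.
Mag: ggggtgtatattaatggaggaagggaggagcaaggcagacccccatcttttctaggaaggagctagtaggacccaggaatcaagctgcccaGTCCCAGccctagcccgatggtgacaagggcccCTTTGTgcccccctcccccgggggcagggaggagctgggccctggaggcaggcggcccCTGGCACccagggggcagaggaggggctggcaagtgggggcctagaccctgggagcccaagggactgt
Cldn11: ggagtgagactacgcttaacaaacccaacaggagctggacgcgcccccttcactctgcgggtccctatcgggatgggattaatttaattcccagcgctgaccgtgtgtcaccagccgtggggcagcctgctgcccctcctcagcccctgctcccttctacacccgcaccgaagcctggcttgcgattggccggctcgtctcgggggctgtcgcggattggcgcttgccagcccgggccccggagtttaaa
Gjc3: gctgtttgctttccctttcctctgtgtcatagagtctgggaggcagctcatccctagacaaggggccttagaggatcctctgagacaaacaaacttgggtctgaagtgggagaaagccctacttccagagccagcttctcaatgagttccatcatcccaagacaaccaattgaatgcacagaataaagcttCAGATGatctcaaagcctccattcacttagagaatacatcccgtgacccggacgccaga
The Mag window held 3 matches, of ACAAAG once and of CTGGNAC on both strands. Gjc3 held 1 match of CAGATG, and Cldn11 held 0 of the 5 motifs. No match overlapped another.

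Windows were listed for 25 of the 35 genes, 33 windows in all. ACAAAG occurred in 30.3% of them, against 16.5% of all 32851 windows of that length, CAGATG in 30.3% against 14.4%, and CTGGNAC in 24.2% against 16.1%. ACAATG was in 12.1% against 10.7%, and CAGCTG in 12.1% against 13%. Windows of the same gene can share bases, the motifs were chosen after the expression values were seen, and a match is a description of letters.

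Of the 6 enzymes and carriers of myelinating cells 4 had a lower mean in TCQA, the median being -0.21 and 0 with an unadjusted p under 0.05. Car2, the carbonic anhydrase of oligodendrocytes, had 15.80 and 15.57 in the TCQA arrays and 16.06 and 15.97 in the water arrays. Aspa, which splits N-acetylaspartate to supply acetate, had 11.17 and 11.48 in TCQA and 11.74 and 11.60 in water, and Trf, the iron carrier transferrin, 13.59 and 13.67 in TCQA and 14.39 and 13.71 in water. In these 3 genes both TCQA arrays lay below both water arrays, at differences of -0.33 (SE 0.20), -0.34 (SE 0.21) and -0.42 (SE 0.26). For Trf the difference was -0.079 without water 1, while for Car2 and Aspa it was -0.28 and -0.27. The smallest of the 6 adjusted p-values from limma was 0.708.

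The enzymes of myelin's galactolipids had small mean differences with wide intervals. Ugt8a, which makes galactosylceramide, differed by 0.071 (95% interval -0.42 to 0.56), and Fa2h, which hydroxylates its fatty acid, by -0.10 (95% interval -1.03 to 0.83). Ugt8a changed sign without TCQA 1 (-0.033) and without water 2 (-0.055). Fa2h had its highest and its lowest value in water 1 and water 2, with the TCQA arrays at 9.51 and 9.50 between them, and it was 0.51 without water 1 and -0.71 without water 2. Apod, the lipid carrier apolipoprotein D, differed by 0.028, and by -0.041 after quantile normalisation, -0.18 without TCQA 2 and -0.21 without water 2.

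All 3 receptor and signalling genes had a lower mean in TCQA. Gpr37, a receptor of maturing oligodendrocytes, had 10.80 and 10.97 in the TCQA arrays and 11.47 and 11.21 in the water arrays, a difference of -0.45 (SE 0.20, 95% interval -0.94 to 0.035, unadjusted p = 0.0637, adjusted p = 0.683, limma). The groups did not overlap, and the difference was -0.32 without water 1. Lpar1, a lysophosphatidic acid receptor, had 11.59 and 11.06 in TCQA and 11.85 and 11.11 in water, and Plekhb1, a pleckstrin-homology domain protein, 15.31 and 15.22 in TCQA and 15.63 and 15.14 in water. Both overlapped, and their differences of -0.15 and -0.12 turned to 0.21 and 0.13 without water 1. Lpar1 was also higher, by 0.11, without TCQA 2.

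Genes of the same cells outside these 35 were listed beside them. Of 34 other oligodendrocyte genes measured 22 were lower (49.5% of all transcript clusters were), with a median of -0.093. Both TCQA arrays lay below both water arrays for 11 of the 34 (19.2% of all) and above both for 5 (19.9% of all). An unadjusted p under 0.05 was reached by 0 genes in the higher direction (3.48% of all) and by 3 in the lower (3.89% of all). These were Prr18, a proline-rich protein, at -0.74 (SE 0.23), Adamts4, a protease of the extracellular matrix, at -0.63 (SE 0.20), and Tmem125, a membrane protein, at -0.54 (SE 0.18). Prr18 had 7.57 and 7.47 after TCQA and 8.49 and 8.02 after water, and without water 1 the 3 differences were -0.50, -0.59 and -0.50, none with an unadjusted p under 0.05, as was also the case without TCQA 2 (-0.69, -0.49 and -0.53). Both group means of Tmem125 lay below the control median, as did the TCQA mean of Adamts4. Water 1 was the highest array for 21 of these 34 genes, and without it the list's median was 0.067.

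Other precursor genes did not show the water 1 pattern, with 6 of 14 lower, a median of 0.047 and 3 of 14 highest in water 1. The smallest p-values were those of Matn4, a matrilin, at 0.40, and Bcan, the proteoglycan brevican, at 0.36, both with the TCQA arrays above the water arrays and neither with an unadjusted p under 0.05. Of 11 other genes of the newly formed stage 6 were lower, with a median of -0.11. Tcf7l2, a Wnt effector of differentiating oligodendrocytes that thalamic neurons also express, had 9.63 and 10.02 in the TCQA arrays and 11.02 and 10.36 in the water arrays, giving -0.86 (SE 0.28, unadjusted p = 0.02, adjusted p = 0.673, limma). It was -0.54 without water 1 and -0.67 without TCQA 1, past an unadjusted p of 0.05 in neither fit. Bmp4, a ligand that holds back differentiation, was at 0.44 with both groups below the control median.

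Genes of myelin lipid synthesis were about evenly divided, with 9 of 19 lower, a median of 0.016 and 0 with an unadjusted p under 0.05. Kdsr, an enzyme of sphingoid base synthesis, Msmo1, a sterol oxidase of cholesterol synthesis, and Cers2, the ceramide synthase of very long chains, had the smallest p-values, at 0.39, 0.35 and 0.42. In all 3 the TCQA arrays lay above the water arrays. Signals and receptors that govern myelination divided 10 to 10, with a median of 0.00. Jag1, a Notch ligand, was higher at 0.68 (SE 0.21, adjusted p = 0.673, limma), Fgfr3, a growth factor receptor that astrocytes also carry, was higher at 0.54 (SE 0.20), and Lif, a cytokine, was lower at -0.64 with both groups below the control median. Each lost its unadjusted p under 0.05 without water 1 (0.51, 0.57 and -0.56), as did Jag1 without TCQA 1 (0.63), Fgfr3 and Lif without TCQA 2 (0.39 and -0.48) and Fgfr3 without water 2 (0.51). In the node and paranode list 5 of 10 were lower, with 0 at an unadjusted p under 0.05, and Cntn2, a contactin beside the paranode, stood at -0.49 (SE 0.22).

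Markers of other tissue also stood apart in water 1. All 14 measured striatal markers were highest there, and 14 of 14 had a lower mean in TCQA, with a median of -0.64. Their mean log2 signal was 11.74 and 11.26 in the TCQA arrays and 12.62 and 11.56 in the water arrays. Excitatory neuron markers ran the other way, with 9 of 10 lowest in water 1, and means of 12.47 and 12.37 in TCQA and 11.59 and 12.41 in water. Of the 10, 9 had a higher mean in TCQA, with a median of 0.41. Fezf2, at 1.17, and Rorb, at 0.54, had an unadjusted p under 0.05 (3.48% of all transcript clusters were higher at that level). Fezf2 also met the study's criteria (0.245% of all). Both genes were lowest in water 1. Fezf2 had 10.55 and 10.88 in the TCQA arrays and 8.81 and 10.28 in the water arrays. Rorb had 12.64 and 12.70 in TCQA and 11.91 and 12.35 in water. Myelinating genes averaged 11.62 and 11.60 in TCQA and 12.10 and 11.51 in water. Without water 1 the striatal median was -0.056 and the excitatory neuron median -0.042, beside 0.07 for the myelinating genes. The part of these markers in the myelin result was not tested.

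Choroid plexus epithelium, which also makes transferrin and carbonic anhydrase, was represented by 12 markers. Of these, 11 were lower in TCQA (49.5% of all transcript clusters were), with a median of -1.01. An unadjusted p under 0.05 in that direction was reached by 8 of the 12 (3.89% of all). The 12 markers had means of 7.22 and 6.51 in the TCQA arrays and 8.42 and 7.85 in the water arrays. Both group means of 6 of the 12 lay below the control median. Without water 1 the median of the list stayed negative, at -0.74, with 10 of 12 lower (48.5% of all transcript clusters were). The choroid plexus list and Car2 were lowest in TCQA 2, Trf was lowest in TCQA 1, and all 3 were highest in water 1. The part of choroid plexus in Trf and Car2 was not tested. Of 11 thalamic markers 8 were highest in water 1, with means of 8.68 and 9.52 in TCQA and 9.89 and 9.21 in water. Olfactory bulb markers were highest in TCQA 2 for 6 of 8, with means of 6.58 and 8.36 in TCQA and 6.90 and 6.72 in water.

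Among the remaining lists, astrocyte markers had a median of -0.033, with 6 of 11 lower and 3 of 11 highest in water 1. Schwann cell markers, which would mark peripheral myelin, had 2 of 6 lower and 0 highest in water 1, with both group means of 3 of the 6 below the control median. Microglia markers had a median of -0.074 (8 of 10 lower), endothelial markers 0.25 (2 of 10 lower) and meningeal and fibroblast markers 0.007 (5 of 10 lower). Of these, 5, 1 and 2 of 10 were highest in water 1 (26.9% of all transcript clusters were). At an unadjusted p under 0.05 (7.37% of all) were Fgfr3 (0.54) and Slc1a3 (-0.47) of astrocytes and Aif1 (-0.70) of microglia. Endothelial genes at that level were Slc2a1 (0.77), Flt1 (0.67) and Emcn (-0.67), the last with both group means below the control median. No gene of any of these lists passed limma's adjusted threshold.

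**Figure D4:**
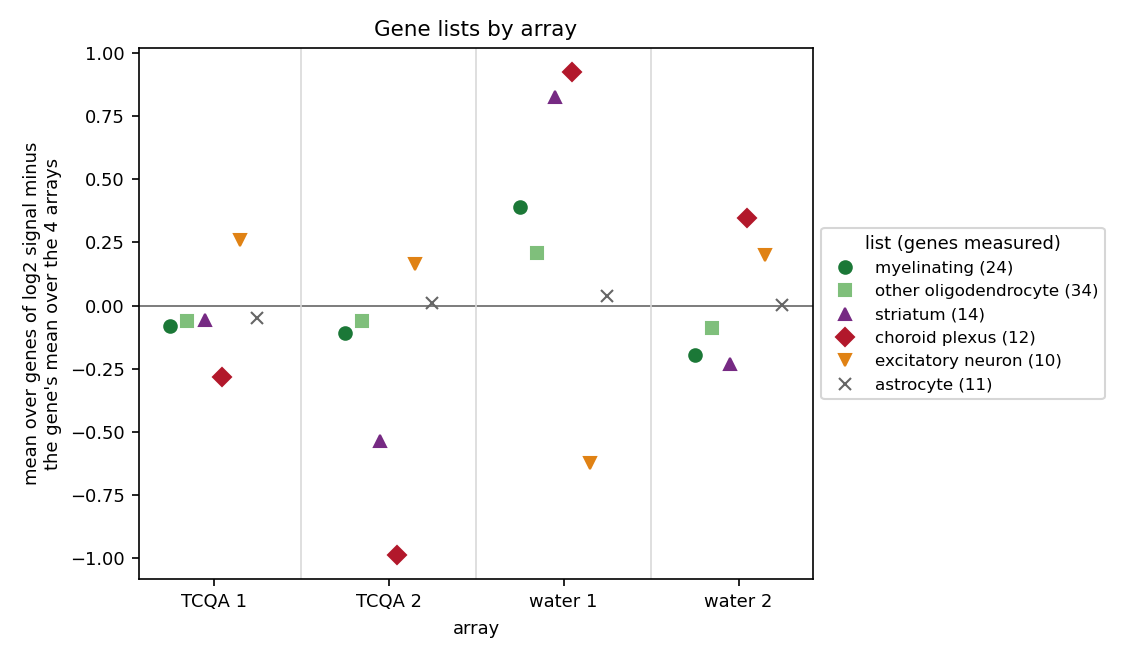
Each point is the mean, over the genes of a list on 1 array, of the log2 signal minus the gene's mean over the 4 arrays, with the TCQA arrays left and the water arrays right. Myelinating, other oligodendrocyte and striatal genes share their highest position in water 1 with choroid plexus markers. In water 2 choroid plexus markers stand at 0.35, while myelinating, other oligodendrocyte and striatal genes lie below 0. Excitatory neuron markers have their lowest position in water 1, and astrocyte markers stay near 0.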

How the data were processed

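RNA of the brain cortex (100 ng per array) was hybridised to Clariom S arrays, 2 per group. The deposited values are log2 signals, which the authors made by RMA, using Transcriptome Analysis Console version 4.0.2, per the submitters' processing notes. The log2 scale was also read from the values, and no genome build is stated in the sources used here. The table held 28846 rows, of which 19572 carried a gene symbol in the platform annotation and were tested; the 6640 control probe sets and 2634 unnamed rows were left out. All 19572 gene identifiers matched RefSeq. TCQA was compared with water by limma 3.58.1 in R 4.3.3 (lmFit and eBayes, no covariate), with Benjamini-Hochberg adjustment over all 19572 and a threshold of 0.05, and with the study's criteria of an unadjusted p under 0.05 and over 2-fold. The fit was tested on simulated data. Arrays give no read depth, and their number, 4, limits the precision.

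The members and gene lists were chosen with earlier results of these data known. Values of every array are given for members with an unadjusted p under 0.05, for the 3 with the smallest p in each stage or role, and for the largest changes in each direction, with up to 3 genes of each other list. Promoter windows of 250 bases came from RefSeq, GRCm38.p6. Alternatives varied the variance prior, array weights, normalisation, centring, the filter on dim signal, the row standing for a gene, the replicate number as a block, and each array in turn.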

Additional observations from a re-analysis of the deposited data

How the results depend on the processing

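With 4 arrays, dim genes near the negative controls and differences well under 2-fold are beyond what the signal resolves, and whether an array stands for 1 mouse or several is not stated. The count past the study's criteria, 130 of all transcript clusters, was 56 with the filter at the negative control median, 44 in the upper 50% of signal and 55 without the empirical Bayes step, and 218 to 428 with 1 array left out. The count with an unadjusted p under 0.05, 1443, was 942 and 898 under the same filters, which test fewer genes, and 1011 to 1735 with 1 array left out. The adjusted count of 0 was 0 to 2 with 1 array left out, 2 without TCQA 1.

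Of the 35 genes, those lower with an unadjusted p under 0.05 numbered 2, against 6 with an intensity trend in the prior, 4 after quantile normalisation, 4 after median centring, 5 with the filter at the negative control median, 5 in the upper 50% of signal, 1 with the prior over every probe set, 0 without the empirical Bayes step, and 0 to 11 with 1 array left out. Those higher numbered 0, and 0 to 2 with 1 array left out, 2 without water 1. The cause was not tested. Over all transcript clusters an unadjusted p under 0.05, in either direction, was reached by 1443 in the main fit. The count was 1589 with the intensity trend, 1346 after quantile normalisation and 1423 after median centring. It was 984 with the prior over every probe set and 1322 without the empirical Bayes step. In the fits that kept all arrays 0 of the 35 were higher, so their counts in either direction equal those lower. For these altered settings the count of all transcript clusters that were lower is not given here. Nor is the number tested under either filter. Whether more of the 35 were lower than of all transcript clusters therefore cannot be judged for these settings. With 1 array left out the median log2 change ranged over -0.35 to 0.15 for precursor genes, -0.59 to 0.054 for newly formed, -0.34 to 0.18 for lineage factors and -0.48 to 0.070 for myelinating genes.

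Mal and Apod turned from 0.02 and 0.03 to -0.043 and -0.041 after quantile normalisation, and no other gene of the 35 turned under a setting that kept all arrays. With 1 array left out 18 turned, 12 of them without water 1, and 17 did not. Their ranges were -0.019 to 0.33 for Neu4, -0.54 to 0.24 for Lhfpl3, -0.49 to 0.13 for C1ql1, -0.19 to 0.024 for Gpr17, -0.98 to 0.083 for Enpp6, -0.045 to 0.32 for Nkx2-2, -0.34 to 0.18 for Olig1, -0.16 to 0.33 for Olig2 and -0.65 to 0.21 for Cnp. Those of the others were -0.38 to 0.31 for Ermn, -0.25 to 0.28 for Mal, -0.055 to 0.20 for Ugt8a, -0.71 to 0.51 for Fa2h, -0.21 to 0.26 for Apod, -0.52 to 0.21 for Lpar1, -0.36 to 0.13 for Plekhb1, -0.47 to 0.43 for Myrf and -0.91 to 0.011 for Nkx6-2.

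With the replicate number as a block, 2 genes of the 35 were again lower with an unadjusted p under 0.05, Bcas1 and, in place of Mag, Mbp, and 130 transcript clusters met the study's criteria. The medians were -0.17, -0.27, -0.08 and -0.22 for the precursor, newly formed, lineage factor and myelinating genes, as without the block. This was fixed by the layout, because each group holds both replicate numbers. The block can therefore alter only standard errors and p-values. The block moved standard errors both ways, from 0.31 to 0.20 for Bcas1 and from 0.34 to 0.37 for Lhfpl3. The gaps between arrays 1 and 2 of the TCQA and water groups had a correlation of -0.0032 across 19572 transcript clusters, which are not independent replicates. That value does not settle whether the numbers pair the samples, which was not tested.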
